A study of Mus musculus with 2 samples.

Results

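Microglia are the resident macrophages of the brain and spinal cord, and their membrane voltage, acid balance and calcium entry are set by a small group of ion channels. The genes described here are 10 such channel genes: the two-pore domain potassium channels Kcnk6, Kcnk12 and Kcnk13, the calcium-activated potassium channel Kcnn4, the voltage-gated potassium channel Kcna3, the inward rectifier Kcnj2, the voltage-gated proton channel Hvcn1, the chloride intracellular channel Clic1, and the cation channels Trpv2 and Trpm2. They were taken as every probe that carries one of these names on both arrays, which gave 12 of 55681 probes and 10 of 35014 gene names. The atopic diathesis group is 1 sample of microglia sorted from the spinal cord of mice of an atopic diathesis model, a tendency to allergic disease, and its title calls the cells activated. The control group is 1 sample of microglia sorted from control mice, and its title calls the cells normal. The labels give model and control under genotype and variation, but how the model was made, any allele, the strain, age and number of mice are not given in the sources used here. Total RNA was amplified, labelled with Cy3 and measured on 1-colour Agilent arrays of 1 slide. Since each group is a single array, nothing was tested and every value describes this pair of samples, and group and place on the slide cannot be told apart. In a bulk sample, fewer cells that express a gene and less RNA per cell cannot be told apart.

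Potassium channels hold the membrane of a microglial cell negative. That voltage draws calcium in through store-operated and TRP channels, and potassium loss through such channels is a known trigger of the NLRP3 inflammasome. Proton channels let out the acid made when the phagocyte oxidase produces superoxide, and Clic1 has been tied to the same oxidative response. Trpv2 and Trpm2 are calcium-permeable, Trpm2 being opened by ADP-ribose, which forms under oxidative stress.

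The arrays read each gene through probes of 60 bases, and 2 of the genes have a pair of probes. Both Hvcn1 probes overlap and yet differ in size of response, and both Trpm2 probes lie far apart and differ in detection. The 30 bases printed of each are the first 30, except for the downstream Hvcn1 probe, where they are the last 30. Capitals mark the bases that both Hvcn1 probes share, of which 8 fall in each printed part of the 38 shared in all. Coordinates are those of the files, on mouse build mm9.
Hvcn1 upstream probe, chr5:122692220-122692279, plus strand: aaaggaactgaaatctagagagAAATAACC
Hvcn1 downstream probe, chr5:122692242-122692301, plus strand: TTCCCACCacccttgctgtcatggggcttt
Trpm2 upstream probe, chr10:77425556-77425615, minus strand: cagttcaaccatcagacacaattttgagaa
Trpm2 downstream probe, chr10:77372065-77372124, minus strand: aaatgaatcttggaaaacttcaggactcaa

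The next probes belong to the other genes with the largest differences and are shown to say what was measured. Each is the only probe of its gene on the array.
Trpv2 probe, chr11:62413739-62413798, plus strand: agggaattttgccagccacacccgaggcta
Kcnk6 probe, chr7:30007215-30007274, minus strand: tgggaagtgatgactattcctggttctgaa
Kcna3 probe, chr3:106840925-106840984, plus strand: taatatatgatacggttgccaattctgtgc

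The remaining probes lie on chromosome 17 at 88145628 to 88145687 (Kcnk12, minus strand), chromosome 12 at 101300491 to 101300550 (Kcnk13, plus strand), chromosome 11 at 110936203 to 110936262 (Kcnj2, plus strand) and chromosome 17 at 35195587 to 35195646 (Clic1, plus strand). The Kcnn4 probe is listed on chromosome 7 from 25169184 to 25169782 (plus strand), an interval of 599 bases for a probe of 60. No genome or exon annotation of build mm9 was used here, so exons, introns and untranslated regions were not assigned. None of the 12 probes shared a run of 20 bases, on either strand, with a probe of another gene. Their GC content was between 35% and 55%, around the median of 43.3% of all probes. The letters AATAAA, a hexamer known as a polyadenylation signal, were searched for on both strands. They stood on the printed strand of both Hvcn1 probes, from base 44 of the upstream probe and base 22 of the downstream probe. These are the same bases of the genome, inside the stretch that both probes share and outside the printed parts. The Clic1 probe held the letters on the opposite strand. Of all probes, 10.1% held them on the printed strand and 13.4% on either strand.

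Trpv2 and Kcnk6 read higher in atopic diathesis microglia, and Hvcn1 read lower. Kcna3, and Trpm2 on 1 of its 2 probes, were detected in control microglia only. Clic1 was within 2-fold. Kcnn4 was near background, and Kcnk12, Kcnk13 and Kcnj2 were detected on neither array. A probe counts as detected where Feature Extraction marks its spot as well above background, and as measured where both arrays detected it. Of 10 genes, 4 were measured. Of those 4, 2 were at least 2-fold higher and 1 was at least 2-fold lower, where 17.3% and 15.6% of all 9217 measured genes were so. Differences are log2 processed signal in atopic diathesis minus control, relative to the median probe measured on both arrays. The median of the 4 measured genes was 0.53, against -0.0025 for all measured genes. That median was not stable: it was 0.034 on a scale set by the upper quartile of all probes, 0.18 with normexp (a model-based background correction), 0.12 with uncorrected signals and -0.48 with genes detected on at least 1 array included. Of the 7 genes detected on at least 1 array, 2 were detected on the control array only and 1 on the atopic diathesis array only, where the shares among all detected genes were 10.9% and 21.2%. The other 3 of 10 were detected on neither array, which held for 61.2% of all genes of the array. Among so few genes each count rests on 1 to 3 genes.

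**Figure D1:**
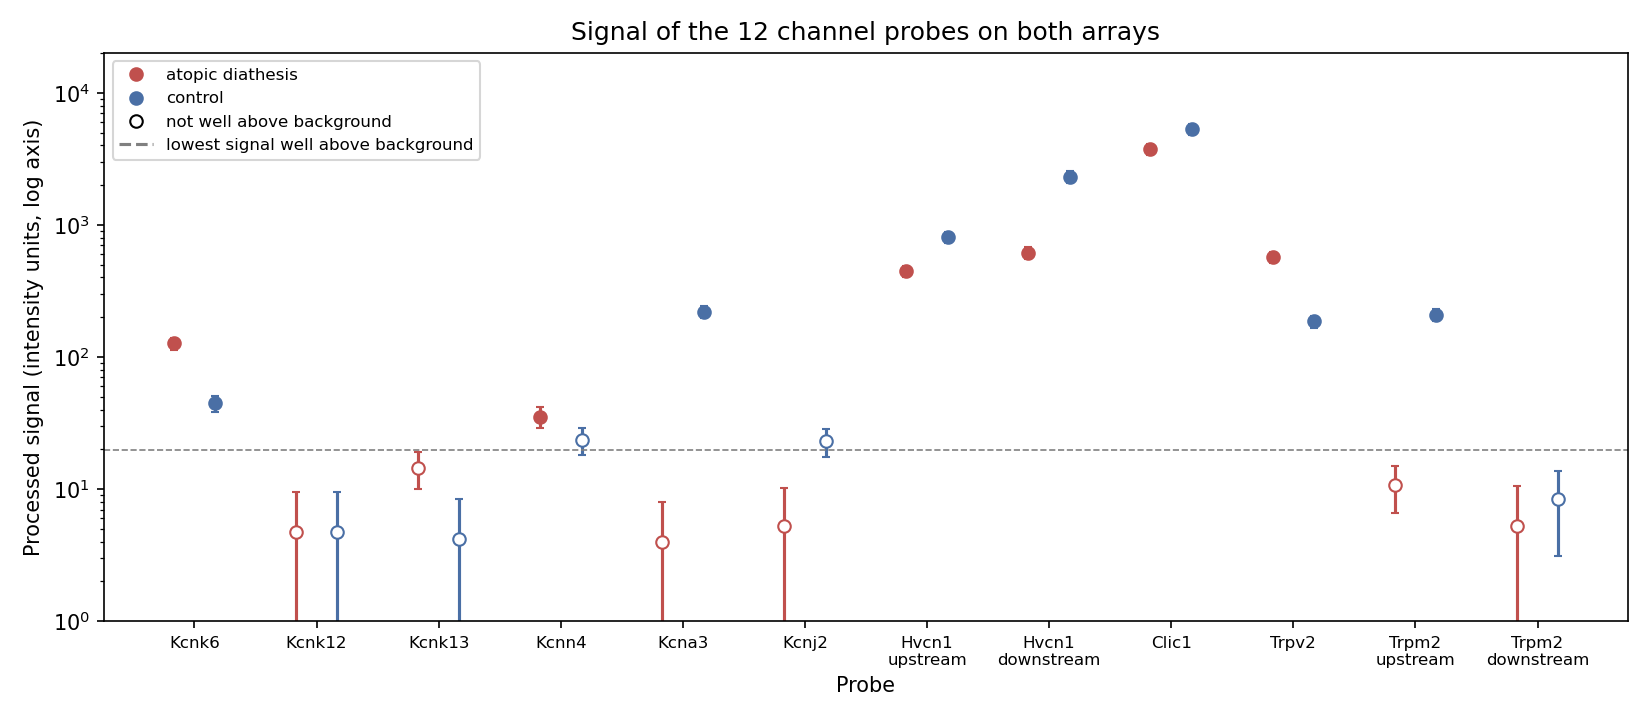
Processed signal in intensity units on a log axis for each of the 12 probes, atopic diathesis left of control. Bars are the error that Agilent Feature Extraction gives each spot (cut where they pass below the axis), and open circles are not well above background. Trpv2 and Kcnk6 stand higher in atopic diathesis, both Hvcn1 probes stand higher in control, and Kcna3 and the upstream Trpm2 probe are filled in control only.

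Probes well above background made up 27.6% on the atopic diathesis array and 24.1% on the control array, no probe was saturated, and the median signal of probes measured on both was 202 in atopic diathesis and 199.8 in control. Surrogate values stood at 39.0% of probes in atopic diathesis and 48.0% in control, and 2876 genes were detected in atopic diathesis alone against 1486 in control alone. The lowest signal well above background was 19.9 on the atopic diathesis array and 19.8 on the control array. The scatter between repeated spots of 101 probes on each array, taken as independent, gave a log2 difference an SD of 0.20. That SD was 0.27 for the 50 dimmer probes and 0.10 for the 51 brighter ones. These errors leave out the spread between animals, sorts and amplifications, and precision is limited by how few arrays there are. Of the microglial markers 11 of 11 were well above background on both arrays, with a summed signal of 154529 in atopic diathesis and 170069 in control. Markers of border macrophages (0 of 5), monocytes and neutrophils (0 of 4) and lymphocytes (0 of 6) all failed that criterion on both arrays. Astrocyte markers numbered 2 of 5 in atopic diathesis and 1 of 5 in control (summed signals 355 and 119.9), oligodendrocyte markers 3 and 2 of 5 (742 and 739), and endothelial markers 2 and 1 of 4 (243 and 141.7). The astrocyte and endothelial sums differed through Gja1 and Pecam1, each detected in atopic diathesis alone, whereas Gfap (69.5 in atopic diathesis and 83.3 in control) and Kdr (104 in atopic diathesis and 128 in control) ran the other way. Of 5 neuronal markers only Snap25 was detected, at 84015 in atopic diathesis and 82155 in control. The part of these other cells in the results was not tested.

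Trpv2, a calcium-permeable cation channel that macrophages use in phagocytosis, had the largest increase of the 4 measured genes. Its probe had a signal of 567 in atopic diathesis and 186 in control microglia. With Feature Extraction's errors of 57.0 in atopic diathesis and 19.3 in control, the ranges around both signals did not overlap. The log2 difference was 1.64 with an error of 0.21, or 3.11-fold higher. In its signal quintile, 1 of 5 equal groups of measured probes ranked by mean signal, 16.5% of probes were at least 2-fold higher. Trpv2 stayed above 2-fold in each of the 7 alternative settings run on single probes, between 2.20- and 3.31-fold.

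Trpm2, which opens under oxidative stress, gave a split picture. Its upstream probe was designed on the cDNA clone AK039405, which the file describes as coming from adult spinal cord, and it read 10.73 in atopic diathesis and 208 in control microglia. Only the control value was well above background, so the difference is a bound: at least 10.3-fold lower in atopic diathesis, measured against the lowest signal well above background. The downstream probe, designed on the reference transcript NM_138301 and 53.4 kb away, read 5.25 in atopic diathesis and 8.45 in control and was well above background on neither array. The Trpm2 difference therefore rests on the cDNA probe alone, and what transcript it reads was not tested. Of the 1486 genes that only the control array detected, 51.8% had a bound of at least 2-fold and 11% one as large as that of Trpm2. Normexp brought the Trpm2 bound to 3.47-fold, and leaving signals uncorrected to 2.94-fold.

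Kcnk6 encodes TWIK2, a two-pore channel known in macrophages for the potassium loss that precedes NLRP3 activation. It had a signal of 127 in atopic diathesis and 44.5 in control microglia, both well above background. The log2 difference was 1.54 with an error of 0.26, or 2.91-fold higher. In its signal quintile 26.8% of probes were at least 2-fold higher. Before background subtraction the spot means were 218 in atopic diathesis and 125 in control, of which 87.7 and 81.4 were taken off as background. The call depended on the processing, since the difference was 0.89 with normexp and 0.80 with uncorrected signals, both short of 2-fold.

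Kcnk13 encodes THIK-1, the channel known to carry the resting potassium current of microglia, and Kcnk12 encodes its relative THIK-2. Kcnk13 read 14.6 in atopic diathesis and 4.22 in control, and neither was well above background. The control value is a surrogate, a substitute that Feature Extraction writes when a spot cannot be told from background. By the software's weaker criterion, positive and significant, the atopic diathesis spot passed and the control spot did not. The raw Kcnk13 spot means were 101 in atopic diathesis and 83.4 in control, only 15.3 and 2.22 above the background taken off, and pixels within a spot had an SD of 21.5 and 18.1. Kcnk12 read 4.74 in atopic diathesis and 4.77 in control, both surrogates. No fold is given for either gene.

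Kcna3 encodes Kv1.3, a voltage-gated potassium channel of microglia and T lymphocytes. Its signal was 3.97 in atopic diathesis, a surrogate, and 219.7 in control microglia, which was well above background. The raw spot means were 89.5 in atopic diathesis, where the background taken off was 85.7, and 328 in control, where it was 80.1. Kcna3 was therefore at least 10.8-fold lower in atopic diathesis microglia. Of the genes that only the control array detected, 10.3% had a bound as large. The Kcna3 bound shrank to 3.68-fold under normexp and to 3.12-fold without background correction. None of the 6 lymphocyte markers was detected, and their summed signals were 48.7 in atopic diathesis and 32.0 in control.

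Kcnn4, the intermediate-conductance calcium-activated channel KCa3.1, read 35.4 in atopic diathesis and 23.7 in control microglia. Only the atopic diathesis spot was well above background, and the control spot's own signal lay above the lowest detected one, so no lower limit beyond the ratio of the 2 signals can be given. Relative to the median measured probe that ratio was 1.52-fold (log2 difference 0.61), and it was between 1.06- and 1.62-fold in the 7 alternative settings. With spot errors of 6.51 in atopic diathesis and 5.53 in control, the ranges of 1 error around the signals overlapped. Of genes that only the atopic diathesis array detected, 59.5% had a bound of at least 2-fold. Kcnj2, the inward rectifier Kir2.1, read 5.23 in atopic diathesis and 23.0 in control. Neither spot was well above background, although both passed as positive and significant, and no fold is given.

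Hvcn1, the voltage-gated proton channel Hv1, read lower in atopic diathesis on both of its probes. The downstream probe read 614 in atopic diathesis and 2316 in control, a log2 difference of -1.88 with an error of 0.20, or 3.69-fold lower. The upstream probe read 446 in atopic diathesis and 808 in control, a log2 difference of -0.83, or 1.77-fold lower. Averaged over both probes the gene was 2.56-fold lower (log2 difference -1.36). In the brightest signal quintile, where the downstream probe lies, 8.66% of probes were at least 2-fold lower. In the quintile of the upstream probe 20% were. The probes share 38 of 60 bases, so they are no separate readings of the gene, and each has 22 bases of its own, as the printed parts show. They nevertheless differed by 1.06 in log2 difference. Across 141 pairs of overlapping probes of 112 genes, with at least 30 shared bases, the median gap was 0.17 and the 90th percentile 0.56. These pairs were not matched to Hvcn1 in signal or shared bases, and many share more. Some belong to chromosome intervals that are counted here as genes. A gap as wide as that of Hvcn1 was found in 3 of the 141 pairs, Hvcn1 included. The direction was the same on both probes in all 7 alternative settings, with the upstream probe between 1.56- and 2.50-fold lower and the downstream probe between 3.20- and 5.21-fold lower. The upstream probe passed 2-fold only on a scale set by the upper quartile of all probes, on which the median measured probe itself lies at -0.50.

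**Figure D2:**
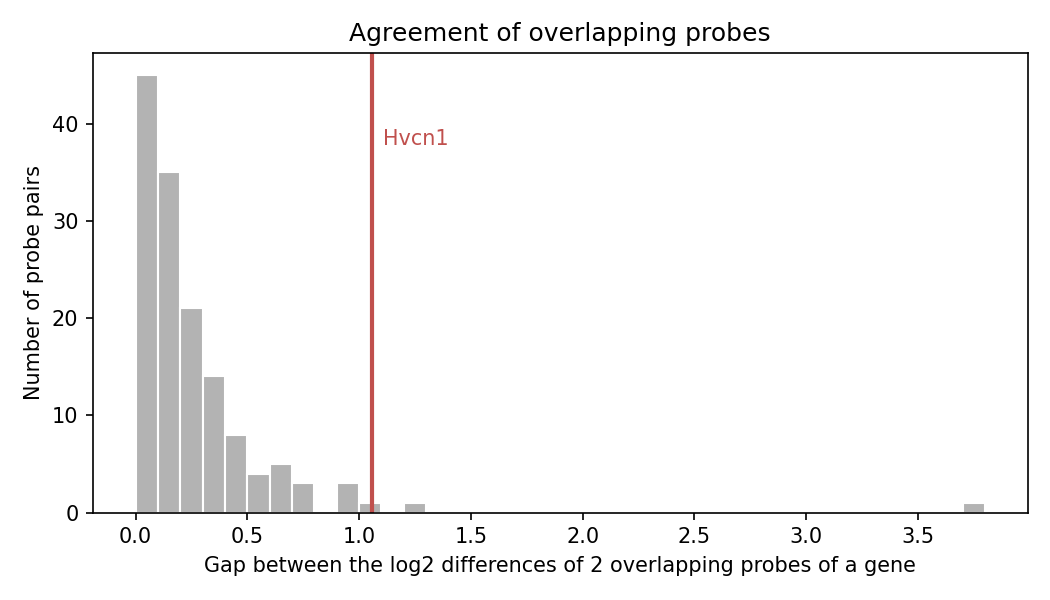
Number of probe pairs by the gap between the log2 differences of 2 overlapping probes of a gene, in bins of 0.1. The red line marks Hvcn1 at 1.06, where the median of all 141 pairs is 0.17. A single pair lies far to the right.

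Clic1, which switches between a soluble and a membrane chloride channel form, was bright on both arrays, at 3725 in atopic diathesis and 5309 in control microglia. The log2 difference was -0.48 with an error of 0.20, or 1.40-fold lower. It stayed within 2-fold in the 7 alternative settings, from -0.98 to -0.29.

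**Figure D3:**
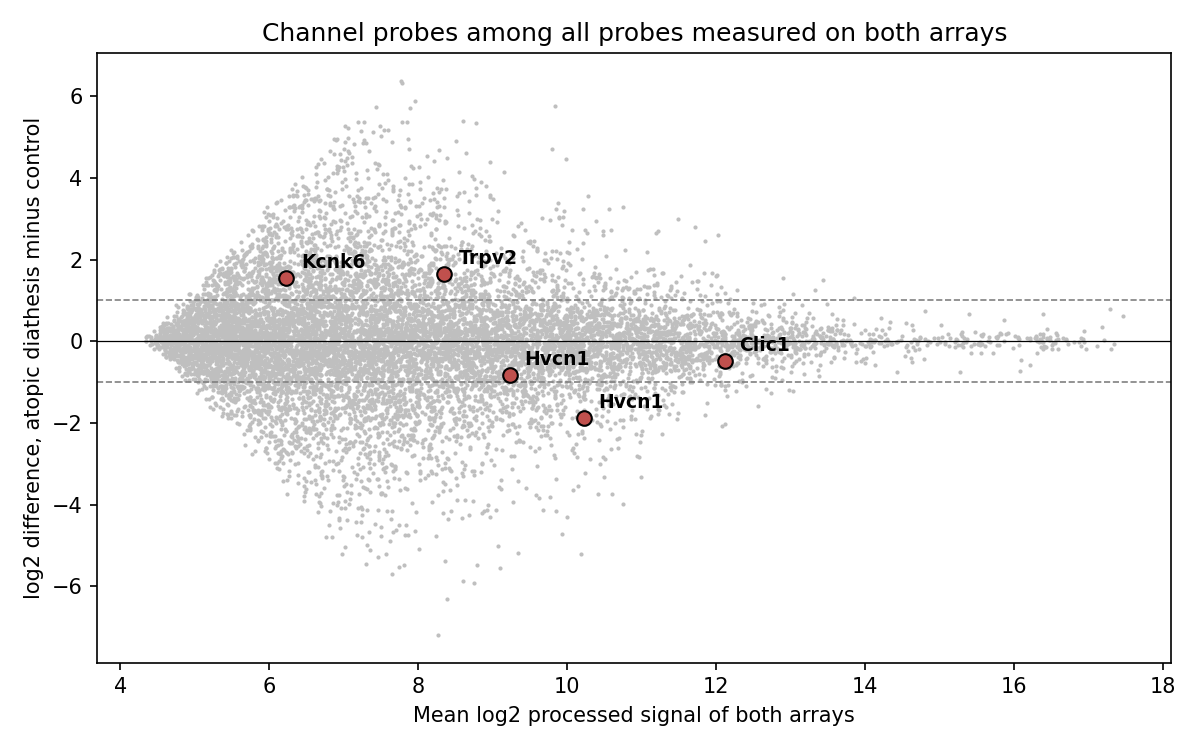
Log2 difference, atopic diathesis minus control, against mean log2 processed signal for the 11263 probes measured on both arrays (grey), with the channel probes in red and dashed lines at 2-fold. Trpv2 and Kcnk6 lie above the upper line, 1 Hvcn1 probe lies below the lower line, and all of them stand among many grey probes.

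The authors' deposited series table, also as intensity, gave the same order between the arrays. Trpv2 had 577 in atopic diathesis and 195 in control, and Kcnk6 117 and 51.8. Hvcn1 had 449 and 783 on the upstream probe and 625 and 2244 on the downstream probe. Kcna3 had 3.94 in atopic diathesis and 227 in control, and Trpm2 9.05 and 217 on its upstream probe. Kcnn4, at 30.2 in atopic diathesis and 28.6 in control, was nearly equal in that table.

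**Figure D4:**
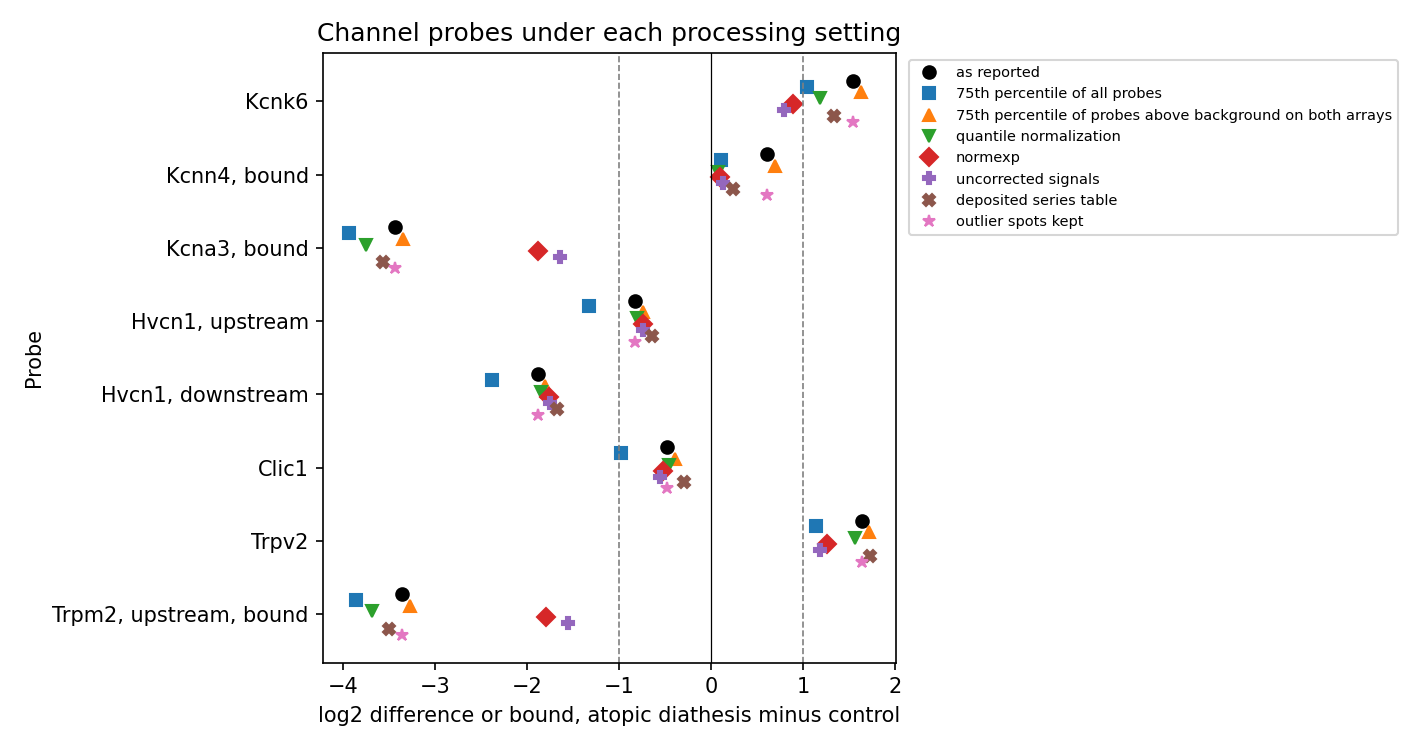
Log2 difference, or bound where 1 array only was above background, for 8 probes under the reported setting and 7 alternatives, with dashed lines at 2-fold. No probe changes side of 0, the bounds of Kcna3 and Trpm2 shrink with normexp and uncorrected signals, and Kcnk6 falls inside 2-fold there.

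Of 180 further genes of these channel families and their partners, 68.3% were detected on neither array, near the 61.2% of all genes. Over all family lists 34.2% of measured genes were past 2-fold in either direction, near the 32.9% of all measured genes. The 11 other two-pore domain channels were detected in 4 cases, all measured on both arrays, of which 2 were at least 2-fold lower and none higher. Those were Kcnk1 (TWIK1), 2.29-fold lower, and Kcnk4 (TRAAK), 2.24-fold lower, whereas their relative Kcnk6 read higher. Kcnk4 was measured on 1 of its 2 probes. Of all measured genes 15.6% were at least 2-fold lower and 17.3% higher. Of 39 other voltage-gated potassium channels 33 were detected on neither array, and among the 3 measured Kcna7 was 2.38-fold higher. Kcna7 was measured on 1 of its 2 probes. Kcnc2 was at least 5.04-fold lower, with a detected signal in control alone. Of 14 other inward rectifiers Kcnj10, an astrocyte and oligodendrocyte channel, had a log2 difference of -0.84. Its partner Kcnj16 had signals of 203 in atopic diathesis and 4.53 in control, where it was not detected, and was at least 10.5-fold higher. Of 5 astrocyte markers, Gja1 was detected in atopic diathesis alone (241 in atopic diathesis, 10.4 in control), Gfap had a log2 difference of -0.23, and Aqp4, Aldh1l1 and Slc1a2 were detected on neither array. Their part in that result was not tested. None of the 7 other calcium- or sodium-activated potassium channels was measured on both arrays, and of 20 auxiliary subunits 3 were measured, all within 2-fold. Dpp6, an auxiliary subunit of A-type channels, read 5.11 in atopic diathesis, where it was not detected, and 94.2 in control, at least 4.64-fold lower. That bound is from 1 of its 2 probes.

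Among 26 other TRP channels 5 were measured, 2 of them at least 2-fold lower and none higher. That is 40% past 2-fold among few genes, where 32.9% of all measured genes were so (15.6% lower and 17.3% higher). Trpm7, a channel joined to a kinase, was 2.06-fold lower and Pkd2l2 2.36-fold lower, the latter measured on 1 of its 2 probes. Trpm4, a calcium-activated cation channel, read 147 in atopic diathesis and 11.8 in control, where it was not detected, and was at least 7.61-fold higher. Of 37 other chloride and anion channel genes 10 were measured, 3 at least 2-fold lower and 1 higher, again 40% past 2-fold. Clic4, another chloride intracellular channel, read 38.5 in atopic diathesis and 350 in control, 8.90-fold lower, where Clic1 was within 2-fold. Ostm1, the partner subunit of the lysosomal chloride transporter Clcn7, was 7.09-fold lower. Clcn7 itself was detected in atopic diathesis alone, at 48.0 in atopic diathesis and 4.05 in control, at least 2.48-fold higher. Lrrc8a, a subunit of the volume-regulated anion channel, was 2.04-fold higher. Clic4, Ostm1 and Lrrc8a were each measured on 1 of their 2 probes. Ttyh2 read 303 in atopic diathesis and 11.2 in control, where it was not detected, and was at least 15.6-fold higher. The Ttyh2 bound is from 1 of its 2 probes. These genes and the channels they relate to were not tested against each other. Folds and bounds of genes in the family lists are given under the reported setting alone. Over all lists 5 genes were at least 2-fold higher and 8 lower. Normexp gave 2 and 4, and uncorrected signals 2 and 3. Which named genes fell short there is not given. Of genes detected on 1 array alone, 59.5% in atopic diathesis and 51.8% in control had a bound of at least 2-fold.

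**Figure D5:**
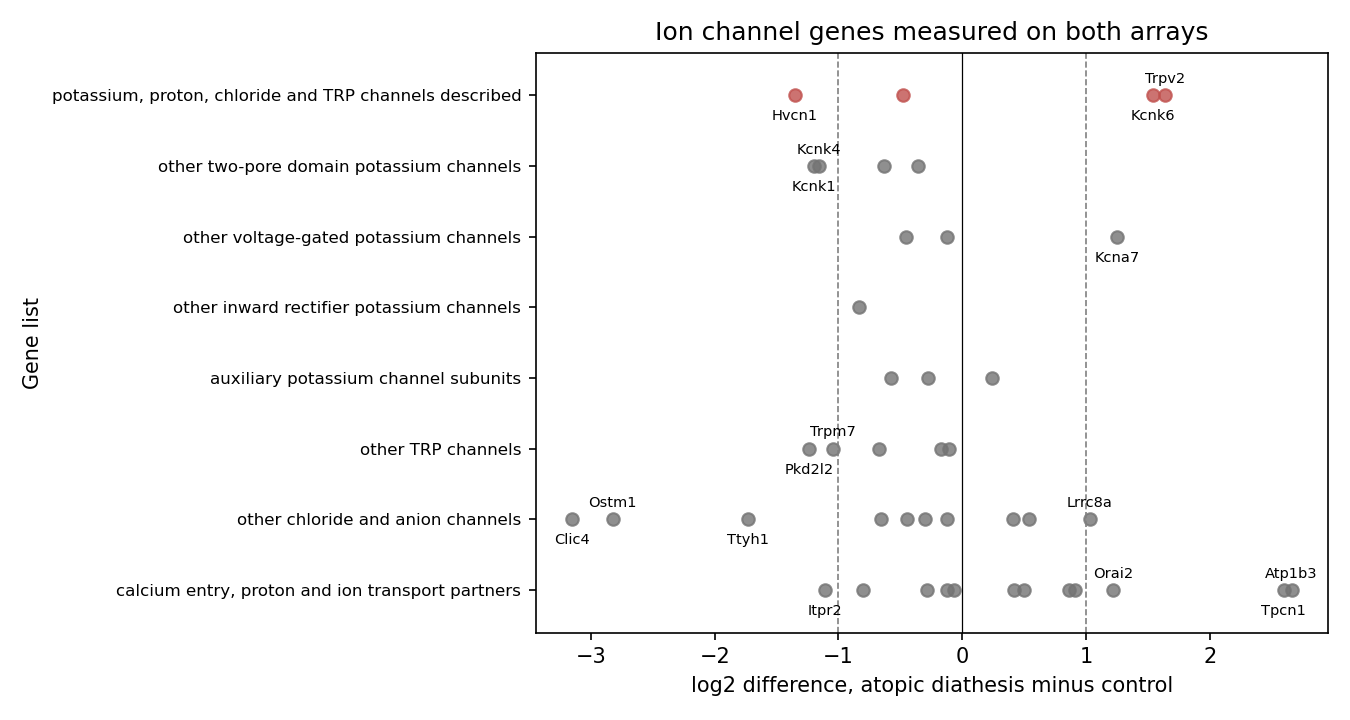
Log2 difference, atopic diathesis minus control, of each channel gene measured on both arrays, 1 point per gene and 1 row per list, with dashed lines at 2-fold and names beyond them. Points past 2-fold stand on both sides, Clic4 and Ostm1 farthest to the left, Atp1b3 and Tpcn1 farthest to the right.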

How the data were processed

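The scanner files hold linear fluorescence intensity per spot. They were made with Agilent Feature Extraction, version 10.7.1.1 per the file headers and 9.5.1.1 per the submitters' processing notes. The processed signal was background-subtracted within each array by that software, per the file headers. It was not the raw spot mean less that background alone. In atopic diathesis that difference was 4056 for Clic1 and 484 for Trpv2, where the processed signals were 3725 and 567. Normexp and uncorrected signals start from raw spot means and leave out this further adjustment too. The series table deposited by the authors also holds linear intensity, and how it was normalized is not stated in the labels. Control spots and spots marked as outliers (122 in atopic diathesis, 136 in control, none of a channel probe) were left out, and repeated spots were averaged as log2 values, leaving 55669 probes. Differences were centred on the median of the 11263 probes well above background on both arrays (-0.031). Each bound is the brighter signal over the higher of the dim probe's own signal and the lowest signal well above background on its array. For genes other than the 10, names came from RefSeq accessions of GRCm38.p6 (27321 probes matched) or from the file. Calculations used Python 3.11.15, pandas 2.3.3 and limma 3.58.1, with an offset of 50 in normexp, and were tested on simulated data. The 10 genes and the lists were chosen with earlier results of these data known. Named genes are all probes of the 10 and, per list, the 2 highest and 2 lowest past 2-fold and the largest bound of at least 2-fold each way, with Kcnj10, Clcn7, Orai2, Orai3 and Stim1 added after their values were seen. A gene that the rule selects is not reported here. Cell type markers come from a set list. Alternatives changed scaling, background correction, filter, probe choice and outlier spots.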

Additional observations from a re-analysis of the deposited data

How the results depend on the processing

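No paired analysis was possible because each group holds 1 array. No channel probe changed side of 0 under the 7 settings run on single probes. Of these, keeping outlier spots could move a channel probe only through the centre, since none had such a spot. Scaling to a 75th percentile, of all probes or of measured ones, also changed the centre alone. Each of these settings moved every channel probe by the same amount. Which channel probes count as detected could not change in these 7, since each used the same background marks of Feature Extraction. The count of channel genes at least 2-fold higher was 2, and 1 with normexp and 1 with uncorrected signals, where Kcnk6 dropped out. The count lower was 1, and 3 once probes above background on at least 1 array entered, which adds Kcna3 and Trpm2 and leaves no bounds to count. The median of the measured channel genes was 0.53, and 0.034 on the 75th percentile of all probes, 0.18 with normexp, 0.12 with uncorrected signals and -0.48 with probes detected on at least 1 array. In the family lists 5 genes were at least 2-fold higher and 8 lower. Higher ones were 2 with the 75th percentile of all probes, 3 with quantile normalization, 2 with normexp, 2 with uncorrected signals and 12 with probes detected on at least 1 array. Lower ones were 14 with the 75th percentile of all probes, 4 with normexp and 3 with uncorrected signals. Of all genes, 1595 were higher and 1439 lower (52.6% higher), against 989 and 2503 (28.3%) by the 75th percentile of all probes, on which the median measured probe lies at -0.50, and 1326 and 1830 (42.0%) by quantile normalization, where it lies at -0.16. Normexp gave 1008 and 965, uncorrected signals 903 and 882, and probes detected on at least 1 array 4295 and 2577. The cause of these shifts was not tested. Signals within a few spot errors of background limit Kcnn4, Kcnj2, Kcnk12 and Kcnk13.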

Other observations

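Of 26 genes that handle calcium, protons and sodium beside these channels, 17 were detected on at least 1 array, and 12 were measured on both arrays, 3 of them at least 2-fold higher and 1 lower. That is 33.3% past 2-fold, near the 32.9% of all measured genes. Atp1b3, a beta subunit of the sodium-potassium pump, read 1056 in atopic diathesis and 171 in control microglia, 6.32-fold higher, and Tpcn1, a cation channel of endosomes and lysosomes, read 699.9 in atopic diathesis and 118 in control, 6.05-fold higher. Each rests on 1 probe. Itpr2, an inositol trisphosphate receptor that releases stored calcium, was 2.16-fold lower on the 1 of its 2 probes that was measured. The median of the 12 was 0.46, against -0.0025 for all measured genes. Values of these 26 genes are given under the reported setting alone.

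Store-operated calcium entry genes differed member by member. Orai2, a pore subunit, had log2 differences of 1.93 and 0.51 on its 2 measured probes (mean 1.22). Orai3 had 1.55 and 0.17 (mean 0.86) on the 2 of its 3 probes that were measured. In each gene 1 measured probe was past 2-fold and the other measured probe was not. Orai1, another pore subunit, was detected in control alone and was at least 2.09-fold lower. The calcium sensor Stim1 was detected in atopic diathesis alone, with a log2 bound of 1.06. The bounds of Orai1 and Stim1 are each from 1 of 2 probes. Orai2, Orai3 and Stim1 were named after their values were seen.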
